A study of Mus musculus with 24 samples.

Results

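The 10 genes described here encode 6 matrix metalloproteinases (Mmp12, Mmp14, Mmp8, Mmp9, Mmp13 and Mmp19), the related membrane protease Adam8 and 3 tissue inhibitors of metalloproteinases (Timp1, Timp2 and Timp3). They were taken by symbol from a table of counts for 43430 mouse gene IDs, and all 10 were found. All 10 also passed the filter on low counts that left 13467 genes to be tested. Mmp13 had more than 10 counts in all 4 libraries of a group only in the Siglec F-low sorts, and Timp3 never exceeded 23 counts.

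Matrix metalloproteinases are zinc-dependent proteases that are made as inactive precursors and cut collagens, elastin and other proteins outside the cell or at its surface. TIMPs bind the active site of these enzymes and block it, so the balance of proteases and inhibitors is followed as a measure of matrix turnover. Macrophages are a main source of MMP12, also called macrophage elastase, in the lung, where matrix turnover is disturbed in emphysema and in fibrosis such as that caused by asbestos.

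The libraries came from alveolar macrophages sorted from lungs of C57BL/6J mice, with 4 libraries in each of 6 groups. Young animals were 8 to 12 weeks old and old animals more than 18 months, according to the sample labels. Naive lungs gave the young and the old Siglec F-high group. Lungs taken 28 days after asbestos gave a Siglec F-high and a Siglec F-low group at each age, and no naive Siglec F-low group was part of the design. The series text speaks of tissue-resident and monocyte-derived macrophages, while the sample labels name the sorts by Siglec F alone, and those names are used. Nothing in the labels says that the 4 libraries of a group came from separate animals, so the p-values measure the spread between these libraries, which may be technical.

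In 22 libraries the total was 13423080 to 18124526 counts. The replicate 3 libraries of both asbestos Siglec F-high groups stood apart, the young one with 11889517 counts on 12528 genes and the old one with 3894699 counts, of which 35.6% fell on the single gene Gm42418. Results are therefore given with all 24 libraries and, where they differ, with the 22 others. The sort marker Siglecf was lower in every Siglec F-low library (148 to 294 CPM, counts scaled to a common library size) than in every Siglec F-high library (312 to 614 CPM), and all 13 markers of resident alveolar macrophages were detected in each group. The macrophage gene C1qa, which was on a list of 13 monocyte-derived macrophage markers, was at 33.0 to 65.0 CPM in the Siglec F-low libraries against 1.63 to 7.26 CPM in the Siglec F-high ones. Of that list 7 were called higher in the Siglec F-low sort at each age with 24 libraries and 0 lower, and its summed level was 5387 to 5959 CPM against 2117 to 4221 in young and 4531 to 6053 against 3779 to 4431 in old lungs. The 2117 CPM came from young replicate 3, without which the young Siglec F-high sums were 4048 to 4221 CPM. The 13 resident markers include Siglecf. With 24 libraries 5 of them were lower and 1 higher in the young Siglec F-low sort, and 3 lower and 1 higher in the old. With 22 libraries 4 were lower and 4 higher in the young, and 6 lower and 2 higher in the old. The summed level of the 13 was higher in the Siglec F-low sort, at 38409 to 50532 CPM against 25861 to 33485 in young and 54539 to 69061 against 17710 to 42912 in old lungs. Without the replicate 3 libraries that stand apart, the Siglec F-high sums were 25861 to 29830.5 CPM in young and 38373.5 to 42912 in old lungs. These lists moved with the sort, and their part in the differences between sorts was not tested. In sorted bulk samples, fewer cells of a type and less RNA per cell cannot be told apart.

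The Siglec F-low sort after asbestos held the most raised members. In young lungs 6 of 10 members (Mmp12, Mmp14, Mmp13, Mmp19, Adam8 and Timp2) were higher in the Siglec F-low than in the Siglec F-high sort with 24 libraries, at an adjusted p under 0.05 by edgeR's quasi-likelihood test, and none was lower, while 3.41% of all genes tested were called higher. With 22 libraries 8 of 10 were higher, adding Mmp8 and Timp1, beside 7.42% of all genes. In old lungs 7 of 10 were higher, the same 6 and Timp1, with 24 as with 22 libraries, beside 2.64% and 6.3% of all genes. The members' median log2 fold change was 1.11 in young and 1.72 in old lungs, where that of all genes tested was 0.00 in both. Proteases and inhibitors were both among the raised genes. Fits of only the 2 groups compared ended the calls of Mmp19 in young and in old lungs (edgeR adjusted p = 0.108 and 0.0652) and of Timp2 in young lungs (edgeR adjusted p = 0.0505). Whether the sort difference depended on age was tested with an interaction term, and no member passed. By edgeR with 24 libraries Timp1 alone had an unadjusted p under 0.05 there (1.71 ± 0.82 on the log2 scale, edgeR adjusted p = 0.761), and with 22 libraries its value was 0.38 ± 0.53. Adam8 was under that limit with 22 libraries, Timp1 and Timp2 with DESeq2 and Adam8 and Mmp12 with limma voom, none of them called. Of all genes, edgeR called 0 (0.0%) in that test, with 650 at an unadjusted p under 0.05, and 0.0147% with 22 libraries, while DESeq2 called 6 and limma voom 15, none of them a member.

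Asbestos was accompanied by higher proteases in the Siglec F-high sort as well. In young lungs Mmp12, Mmp14, Mmp8 and Timp1 were higher than in naive lungs (4 of 10 members, beside 1.43% of all genes called higher), and with 22 libraries it was 5 of 10 (Mmp12, Mmp14, Mmp8, Adam8 and Timp2, beside 3.48%). In old lungs Mmp14 and Adam8 were higher with 24 libraries (2 of 10, beside 0.713%). With 22 libraries 7 were higher (Mmp12, Mmp14, Mmp13, Mmp19, Adam8, Timp1 and Timp2), beside 3.16%. The members' median log2 fold change was 0.78 in young and 1.18 in old lungs, against -0.01 and 0.01 for all genes. Fitted on the libraries of the 2 groups alone, 1 of 10 members was called at each age, given without the share of all genes in those fits. Whether the asbestos difference depended on age was tested in the same way, and no member was called or had an unadjusted p under 0.05 with edgeR, while DESeq2 gave 1 member under that unadjusted limit (Adam8). Of all genes edgeR called 0 (0.0%) there, with 1050 at an unadjusted p under 0.05, and 0.0147% with 22 libraries, while DESeq2 called 0 and limma voom 3.

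Of 5 eosinophil markers 3 were tested, and 1 of them was called higher after asbestos at each age with 24 libraries. The summed level of the 5 was 2.601 to 6.05 CPM in young naive, 2.36 to 8.05 in old naive, 17.6 to 27.7 in young asbestos Siglec F-high, 5.72 to 35.3 in old asbestos Siglec F-high, 42.2 to 62.3 in young Siglec F-low and 17.02 to 53.4 in old Siglec F-low libraries. The naive and the asbestos Siglec F-high sums did not overlap in young lungs and overlapped in old ones. Most of the sum was Ear6, and Epx was at 0 in every library of the old naive and the young Siglec F-low groups. The part of these markers in the members' values was not tested.

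Age gave fewer calls in the fits over 24 and over 22 libraries. Mmp12 was the 1 member of 10 that was higher in old than in young macrophages of the naive Siglec F-high sort (beside 1.68% of all genes called higher with 24 libraries and 5.11% with 22) and of the asbestos Siglec F-high sort (beside 2.89% and 4.84%). In Siglec F-low macrophages Adam8 was the 1 member of 10 higher in the old with 24 libraries, beside 0.869% of all genes, and with 22 libraries Mmp14, Mmp13 and Timp1 joined it, beside 3.8%. No member was called lower in the old. The members' median log2 fold change was 0.10 in naive, 0.31 in asbestos Siglec F-high and 0.82 in Siglec F-low macrophages, against -0.01, 0.04 and -0.01 for all genes. The summed levels of B cell and epithelial markers were higher in old naive macrophages, while their median log2 fold changes were not. With 24 libraries the median of the B cell markers was -0.22 in naive, 0.08 in asbestos Siglec F-high and 0.00 in Siglec F-low macrophages. That of the epithelial markers was -0.10, -0.28 and -0.66. The summed level of 6 B cell markers was 58.1 to 93.9 CPM in young and 139 to 285 in old naive libraries, 22.5 to 43.98 and 31.7 to 99.3 in asbestos Siglec F-high ones and 26.1 to 54.3 and 57.3 to 147 in Siglec F-low ones. It overlapped in the asbestos Siglec F-high sort alone, and 1 of the 6 was called higher in each age comparison. Ighm made up much of the sum and was at 30.2 to 46.4 CPM in young and 118 to 257 CPM in old naive libraries, whereas Cd79a overlapped there. The summed level of 10 epithelial markers was 179.9 to 277 CPM in young and 286 to 390.1 in old naive libraries, 209 to 387 and 231 to 365 in asbestos Siglec F-high ones and 172 to 250.5 and 242 to 333 in Siglec F-low ones, with 0 of the 8 tested called in any age comparison with 24 libraries. In naive, asbestos Siglec F-high and Siglec F-low macrophages, 2, 2 and 1 of 13 monocyte-derived macrophage markers were called higher in the old with 24 libraries. With 22 libraries it was 2, 4 and 9, and 0 were called lower in either fit. The part of these markers in the members' age differences was not tested. Fitted on the 2 groups alone, the age test of the members called 0 of 10 members in asbestos Siglec F-high and 6 of 10 in Siglec F-low macrophages. The share of all genes called in these smaller fits is not given here, so these counts have no background beside them.

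One library, young asbestos Siglec F-high replicate 3, decided several of these calls. Leaving it out alone brought Mmp13 and Timp1 under the threshold in the Siglec F-low age comparison (edgeR adjusted p = 0.0204 and 0.0471) and Adam8 in the young asbestos comparison (edgeR adjusted p = 0.00860). Timp1 then also passed in the young sort comparison (edgeR adjusted p = 0.000870). Leaving it out did the same for Mmp12, Mmp19 and Timp1 in the old asbestos comparison (edgeR adjusted p = 0.0327, 0.0178 and 0.00156). The library belongs neither to that comparison nor to the Siglec F-low age comparison, but shares the estimate of the spread with both.

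**Figure D1:**
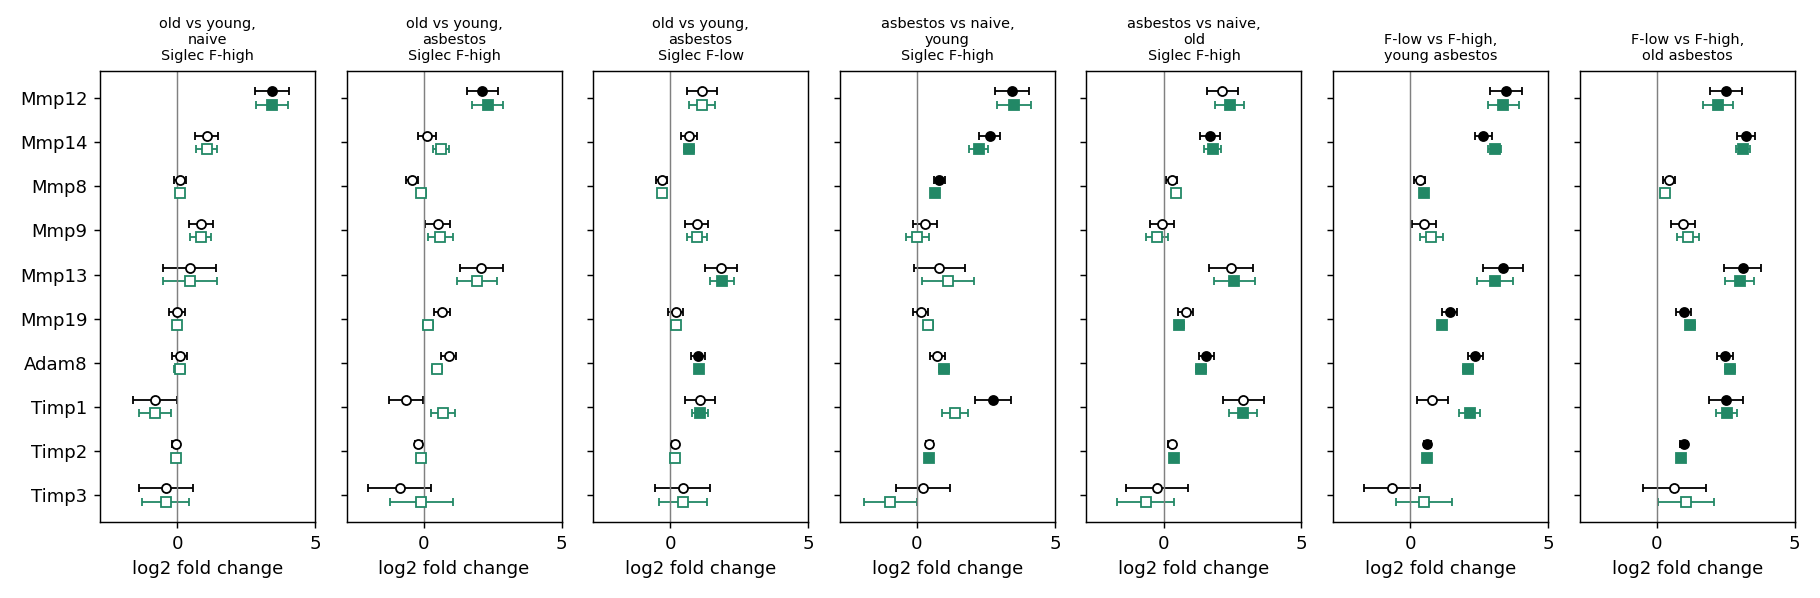
Log2 fold changes of the 10 members in the 7 comparisons of 2 groups; black circles are fits with 24 libraries, green squares fits with 22, bars are ± SE and filled symbols are called at an adjusted p under 0.05. Timp1 is the member whose values move most between the fits, from 2.74 with 24 libraries to 1.37 with 22 in the asbestos comparison of young Siglec F-high macrophages.

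Mmp12 (ENSMUSG00000049723, chr9:7344381-7369499 on GRCm38, plus strand), the elastase of macrophages, varied more than any other of the 10 genes between the group means. In the young naive Siglec F-high sort its 4 libraries gave 3.71, 4.14, 6.12 and 5.42 CPM. In old naive Siglec F-high macrophages they gave 12.6, 155, 17.3 and 25.5 CPM. Every old naive library lay above every young one, and replicate 2 lay far above the other 3.

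After asbestos, the young Siglec F-high libraries held 87.3, 41.5, 42.6 and 39.8 CPM of Mmp12, and the old ones 303, 258, 76.0 and 272 CPM. The young groups did not overlap before and after asbestos, whereas the lowest old asbestos library, replicate 3, lay below the highest old naive one. In the Siglec F-low sort the young libraries held 671, 567, 579 and 531 CPM and the old ones 1692, 1073, 961 and 1507 CPM. All 8 Siglec F-low libraries were above all 16 Siglec F-high libraries. By group mean the Siglec F-high order was young naive (4.85 ± 1.12 CPM, SD, n = 4), old naive (52.7 ± 68.7), young after asbestos (52.8 ± 23.04) and old after asbestos (227 ± 103), followed by the Siglec F-low sort of young (587 ± 59.5) and of old lungs (1308 ± 348). Of neighbours in this order, young asbestos Siglec F-high overlapped with old naive and with old asbestos Siglec F-high, and no other neighbours overlapped.

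**Figure D2:**
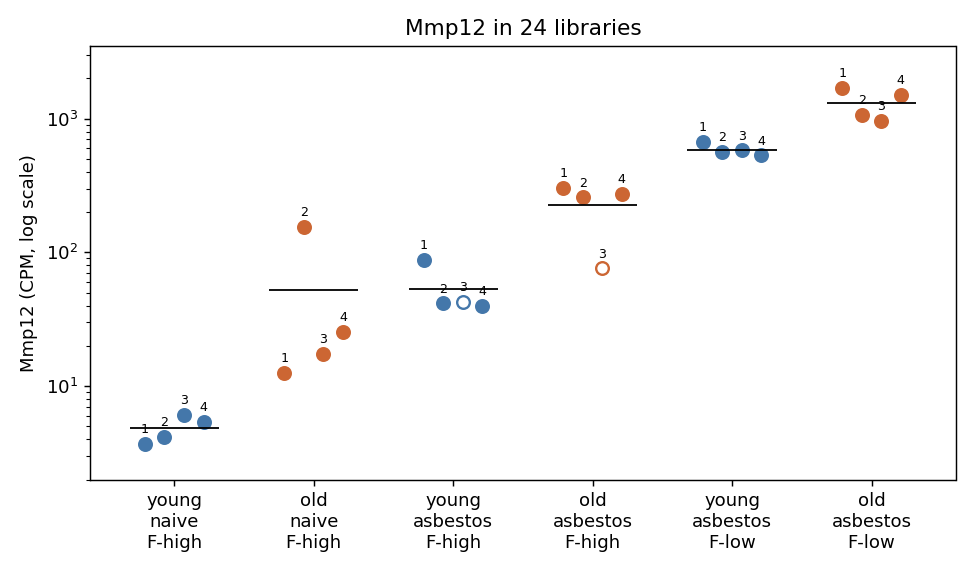
Mmp12 in each of the 24 libraries, in CPM on a log axis, by group; points are libraries numbered by replicate, open points are the 2 libraries that stand apart, and the black line is the group mean. The young naive libraries lie between 3.71 and 6.12 CPM and the Siglec F-low libraries between 531 and 1692 CPM.

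With age, Mmp12 was higher in naive Siglec F-high macrophages, by 3.44 ± 0.61 on the log2 scale (SE; edgeR adjusted p = 0.00186), a fold of 10.8. Without old naive replicate 2 it was 1.93 (edgeR adjusted p = 0.00547), so that library set much of the size but not the call. After asbestos, Mmp12 in old Siglec F-high macrophages exceeded that in young ones by 2.12 ± 0.56 (edgeR adjusted p = 0.0334). The 22 libraries gave 2.31 ± 0.57 (edgeR adjusted p = 0.0141). This call was lost when old asbestos Siglec F-high replicate 1, 2 or 4 was left out, with an edgeR adjusted p of up to 0.0834. In Siglec F-low macrophages the age difference was 1.16 ± 0.54 and did not pass (edgeR adjusted p = 0.593; 0.148 with 22 libraries), although the 4 old libraries lay above the 4 young ones.

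Asbestos was accompanied by more Mmp12 in young Siglec F-high macrophages, 3.44 ± 0.61 higher on the log2 scale (edgeR adjusted p = 0.00294). In old Siglec F-high macrophages the difference was 2.12 ± 0.56 with all libraries (edgeR adjusted p = 0.0924) and 2.40 ± 0.52 with 22 (edgeR adjusted p = 0.00921). Without old naive replicate 2 it was 3.64 (edgeR adjusted p = 4.94e-05). The test of whether the asbestos difference depended on age gave -1.32 ± 0.79 for Mmp12 (edgeR adjusted p = 0.593) and did not pass. The Siglec F-low sort held more Mmp12 than the Siglec F-high sort of the same age, by 3.47 ± 0.59 in young lungs (edgeR adjusted p = 0.000733) and by 2.51 ± 0.57 in old lungs (edgeR adjusted p = 0.0112). The asbestos and the sort comparisons share the asbestos Siglec F-high libraries, so they are not independent of each other.

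The sequences just upstream of Mmp12, Mmp13 and Mmp14 are shown because these 3 genes had the largest sort differences among the members with 24 libraries, in young and in old lungs. They come from RefSeq on GRCm38.p6, which held 9 start sites of 8 members. Mmp9 and Mmp19 were not among them. Each run is the 250 bases before a start site, 5′ to 3′ on the plus strand, and capitals mark matches to the AP-1 motif TGANTCA, which reads the same on both strands, or to the TATA box TATAAA, searched on both strands. The Mmp12 run precedes the downstream one of its 2 start sites and overlaps no annotated exon. The run before the other start site held neither motif and is not printed.
Mmp12 (chr9:7347124-7347373): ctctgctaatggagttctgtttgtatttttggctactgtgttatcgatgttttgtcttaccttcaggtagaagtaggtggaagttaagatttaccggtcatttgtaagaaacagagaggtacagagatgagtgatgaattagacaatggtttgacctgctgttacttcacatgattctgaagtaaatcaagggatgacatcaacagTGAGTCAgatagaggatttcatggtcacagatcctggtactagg
Mmp13 (chr9:7272264-7272513): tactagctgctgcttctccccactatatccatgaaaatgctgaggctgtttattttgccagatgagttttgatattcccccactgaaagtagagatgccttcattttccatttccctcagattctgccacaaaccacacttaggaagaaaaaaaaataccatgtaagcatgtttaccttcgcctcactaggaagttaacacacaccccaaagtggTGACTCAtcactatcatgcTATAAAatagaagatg
Mmp14 (chr14:54431348-54431597): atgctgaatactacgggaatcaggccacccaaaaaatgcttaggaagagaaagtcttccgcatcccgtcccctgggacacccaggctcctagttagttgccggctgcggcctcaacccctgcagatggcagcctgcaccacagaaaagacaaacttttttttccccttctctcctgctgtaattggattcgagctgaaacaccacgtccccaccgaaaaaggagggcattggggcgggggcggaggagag
Mmp12 holds TGAGTCA 44 to 38 bases before its downstream start site and no match before the other, and Mmp13 holds TGACTCA 35 to 29 bases and TATAAA 16 to 11 bases before its own. No other member with a promoter in the table matched either motif, and Mmp14 was among these. AP-1 is the family of Fos and Jun transcription factors. Of 32851 promoters in the same table, 6.75% held the AP-1 motif and 12.4% the TATA motif in a window of the same length. A match describes the letters only and is no evidence of binding.

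Mmp13 (ENSMUSG00000050578, chr9:7272514-7283331, plus strand), a collagenase that cuts fibrillar collagen, was close to the limit of detection in Siglec F-high macrophages. It was at 0, 0.318, 0.146 and 0.0542 CPM in young naive libraries, at 0.466, 0.224, 0 and 0 in old naive ones and at 0.214, 0.298, 0 and 0.312 in young asbestos Siglec F-high ones. Old asbestos Siglec F-high libraries gave 1.33, 0.879, 0 and 0.946 CPM. The 0 of old replicate 3 allows up to 2.45 CPM (3 counts, counting error only), more than its group's other libraries held, so it carries no information on Mmp13, while a 0 in the other 4 libraries allows 0.154 to 0.290 CPM.

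In the Siglec F-low sort Mmp13 reached 3.17, 1.37, 1.95 and 2.97 CPM in young libraries and 13.96, 6.13, 3.41 and 10.5 CPM in old ones. Both Siglec F-low groups lay above the 15 other Siglec F-high libraries, and the old one above the young one. The sort difference was 3.36 ± 0.73 on the log2 scale in young lungs (edgeR adjusted p = 0.00645) and 3.11 ± 0.66 in old lungs (edgeR adjusted p = 0.00709). The age difference within the Siglec F-low sort was 1.85 ± 0.58 (edgeR adjusted p = 0.170), and 1.86 ± 0.44 with 22 libraries (edgeR adjusted p = 0.0104). The asbestos difference of old Siglec F-high macrophages passed with 22 libraries alone, at 2.57 ± 0.73 (edgeR adjusted p = 0.0486, against 0.216 with 24).

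Mmp8 (ENSMUSG00000005800, chr9:7558456-7568485, plus strand), the collagenase first known from neutrophils, was expressed in every group and moved little. It measured 19.1, 20.6, 23.5 and 28.0 CPM in young naive libraries and 36.2, 35.0, 53.0 and 36.2 CPM in young asbestos Siglec F-high ones. These groups did not overlap, and the log2 fold change was 0.81 ± 0.20 (edgeR adjusted p = 0.0391; 0.65 ± 0.15 with an adjusted p of 0.0122 with 22 libraries). That call held without old naive replicate 1, 2 or 4, young asbestos Siglec F-high replicate 2, 3 or 4 or the old replicate 1 or 3 of that sort, and was lost without any 1 of the other 16 libraries (edgeR adjusted p up to 0.128). Old naive libraries gave 20.6 to 30.4 CPM, old asbestos Siglec F-high ones 14.7 to 43.6, young Siglec F-low ones 45.5 to 54.4 and old Siglec F-low ones 37.6 to 44.7. In the Siglec F-low sort the old libraries all lay below the young ones, and this age difference of -0.32 ± 0.20 did not pass (edgeR adjusted p = 0.888; 0.190 with 22 libraries).

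Mmp9 (ENSMUSG00000017737, chr2:164940780-164955850, plus strand), a gelatinase that cleaves denatured collagen, was low throughout, at 0.382 to 3.52 CPM, and passed the test in none of the 7 comparisons with 24 or 22 libraries. Its 4 old naive libraries (1.52 to 1.69 CPM) lay above the 4 young ones (0.382 to 1.39 CPM), by 0.86 ± 0.43 on the log2 scale (edgeR adjusted p = 0.626; 0.197 with 22 libraries). It was highest in old Siglec F-low libraries, at 2.03, 3.52, 3.41 and 3.04 CPM, and overlapped there with young Siglec F-low (1.06 to 2.16 CPM) and old asbestos Siglec F-high ones (0.542 to 3.27 CPM). The 3.27 CPM came from old asbestos Siglec F-high replicate 3 and rests on 4 counts, while the rest of that group reached at most 2.52 CPM. Neutrophils make both Mmp8 and Mmp9. The summed level of 12 neutrophil markers was 43.4 to 64.1 CPM in young naive, 37.7 to 55.3 in old naive, 34.6 to 63.1 in young asbestos Siglec F-high, 33.5 to 53.3 in old asbestos Siglec F-high, 42.2 to 52.9 in young Siglec F-low and 39.6 to 67.8 in old Siglec F-low libraries. Ly6g was at 0 in every library of 5 groups and at most 0.0669 CPM in old Siglec F-low ones, and Mpo and Elane were at 0 in every library of 3 and 4 groups. Of the 6 neutrophil markers tested, 4 were higher in old than in young asbestos Siglec F-high macrophages with 22 libraries (1 with 24). With 22, 2 were raised and 1 reduced with age in naive ones (0 and 1 with 24). Mmp8 itself was called in the young asbestos comparison in both fits, and in the young sort comparison with 22 libraries. In the former 1 marker was raised and 1 reduced with 24 libraries (0 and 1 with 22). In the latter 2 were raised and 1 reduced with 22 libraries (0 and 1 with 24). With 22 libraries the markers' median log2 fold change was 0.46 in the former and 0.88 in the latter. The shares of all genes called higher in these comparisons are given above. The part of these markers in the Mmp8 and Mmp9 values was not tested.

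Mmp14 (ENSMUSG00000000957, chr14:54431612-54445364, plus strand) encodes MT1-MMP, a membrane-anchored collagenase that also activates other metalloproteinases. It was at 0.463, 0.700, 0.534 and 0.542 CPM in young naive libraries and at 0.991, 1.29, 1.11 and 1.302 CPM in old naive ones. The naive groups did not overlap, yet the age difference of 1.07 ± 0.40 did not pass (edgeR adjusted p = 0.300; 0.0866 with 22 libraries). After asbestos Mmp14 was at 2.68, 1.59, 6.38 and 3.80 CPM in young and at 3.80, 3.16, 0.817 and 5.24 CPM in old Siglec F-high libraries.

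The value of 0.817 CPM, from old replicate 3, rests on 1 count and is the only asbestos library within the naive range. Mmp14 was higher after asbestos in young Siglec F-high macrophages by 2.64 ± 0.38 (edgeR adjusted p = 0.000359) and in old ones by 1.68 ± 0.35 (edgeR adjusted p = 0.0212). The latter call was lost when 1 of 5 other libraries was left out (old naive replicate 1, 2 or 3, or old asbestos Siglec F-high replicate 1 or 4), with an edgeR adjusted p of up to 0.121, and held with 22 libraries at 1.78 ± 0.30 (edgeR adjusted p = 0.000876). In the Siglec F-low sort, Mmp14 measured 16.2, 22.02, 26.4 and 23.6 CPM in young and 32.9, 27.8, 30.7 and 49.8 CPM in old libraries. Every Siglec F-low library exceeded every Siglec F-high one, by 2.65 ± 0.31 in young (edgeR adjusted p = 1.12e-05) and by 3.22 ± 0.33 in old lungs (edgeR adjusted p = 3.25e-06). The old Siglec F-low libraries were above the young ones, with 0.68 ± 0.28 (edgeR adjusted p = 0.449) and, with 22 libraries, 0.68 ± 0.19 (edgeR adjusted p = 0.0253).

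Mmp19 (ENSMUSG00000025355, chr10:128790910-128800824, plus strand) is a metalloproteinase outside the classical collagenase and gelatinase groups. By group mean it had the highest level per length of the members in all 6 groups. It was at 209, 198, 219 and 224 CPM in young naive and at 219, 239, 153 and 238 CPM in old naive libraries, and these groups overlapped. Asbestos Siglec F-high libraries gave 300.1, 282, 87.2 and 269 CPM at the young and 241, 307, 550.4 and 393 CPM at the old age. The 2 libraries that stand apart were the lowest of the first group and the highest of the second. Siglec F-low libraries held 570, 659, 654 and 637 CPM (young) and 589, 604, 831 and 875 CPM (old), all above every Siglec F-high library. The sort difference was 1.42 ± 0.28 in young lungs (edgeR adjusted p = 0.00270) and 0.97 ± 0.28 in old lungs (edgeR adjusted p = 0.0485), and with 22 libraries it was 1.15 ± 0.16 and 1.20 ± 0.16 (edgeR adjusted p = 3.28e-05 and 1.85e-05). With 24 libraries the old call held without old naive replicate 3, any young asbestos Siglec F-high library, old asbestos Siglec F-high replicate 3 or old Siglec F-low replicate 2, and was lost without any 1 of the other 17 (edgeR adjusted p up to 0.161). Mmp19 shares 789 exon bases with the antisense gene Tmem198b, which had at most 330 counts in a library, and the sources used here do not say whether counting used strand.

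Adam8 (ENSMUSG00000025473, chr7:139978932-139992562, minus strand), a membrane protease of leukocytes that sheds surface proteins, overlapped in the naive groups, at 4.63, 4.33, 5.98 and 4.17 CPM in young and 5.19, 5.28, 4.97 and 5.03 CPM in old libraries. After asbestos the Siglec F-high libraries held 10.9, 8.45, 3.09 and 9.17 CPM (young) and 10.4, 10.7, 25.3 and 18.7 CPM (old). The low young value and the high old value are both from replicate 3. Adam8 was higher after asbestos in old Siglec F-high macrophages, by 1.55 ± 0.28 (edgeR adjusted p = 0.00785). In young ones the difference was 0.74 ± 0.27 with 24 libraries (edgeR adjusted p = 0.156) and 0.98 ± 0.19 with 22 (edgeR adjusted p = 0.00331).

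In the Siglec F-low sort Adam8 was at 32.2, 47.9, 39.0 and 44.4 CPM in young and at 80.7, 74.7, 78.1 and 98.1 CPM in old libraries, and the ages did not overlap. It was the one member that passed the age test in this sort with 24 libraries, at 1.02 ± 0.26 (edgeR adjusted p = 0.0482), close to the threshold. That call held without young asbestos Siglec F-high replicate 1 or 3 or old asbestos Siglec F-high replicate 1, 2 or 3, and was lost without any 1 of the other 19 libraries (edgeR adjusted p up to 0.2002). With 22 libraries it was 1.02 ± 0.14 (edgeR adjusted p = 7.26e-05). The sort difference was 2.35 ± 0.27 in young (edgeR adjusted p = 8.97e-06) and 2.47 ± 0.28 in old lungs (edgeR adjusted p = 1.16e-05).

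Timp1 (ENSMUSG00000001131, chrX:20870166-20874735, plus strand), a secreted inhibitor of most soluble metalloproteinases, was at 0.618, 0.255, 0.826 and 0.163 CPM in young naive and at 0.350, 0.112, 0.276 and 0.355 CPM in old naive libraries. Young asbestos Siglec F-high libraries gave 1.34, 1.29, 9.77 and 1.12 CPM, and old ones 0.542, 3.16, 2.45 and 2.40 CPM. Young replicate 3 was more than the other 3 libraries of its group together. The asbestos difference in young Siglec F-high macrophages was 2.74 ± 0.65 (edgeR adjusted p = 0.0299) with that library, and 1.37 ± 0.48 (edgeR adjusted p = 0.103) with 22 libraries. It was also lost without any 1 of the 4 young naive libraries (edgeR adjusted p up to 0.136 over these and replicate 3). In old ones it was 2.89 ± 0.74 (edgeR adjusted p = 0.0751), 3.30 without old asbestos Siglec F-high replicate 1 (edgeR adjusted p = 0.0341) and 2.87 ± 0.51 with 22 libraries (edgeR adjusted p = 0.00144).

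Siglec F-low libraries held 6.47, 5.87, 4.19 and 5.88 CPM of Timp1 at the young and 9.21, 10.1, 13.1 and 14.7 CPM at the old age, without overlap between ages. The sort difference in old lungs was 2.51 ± 0.61 (edgeR adjusted p = 0.0189). It was lost without old asbestos Siglec F-high replicate 1 or old Siglec F-low replicate 4, with an edgeR adjusted p of up to 0.0708, and held with 22 libraries at 2.53 ± 0.37 (edgeR adjusted p = 6.12e-05). In young lungs it was 0.80 ± 0.56 with replicate 3 (edgeR adjusted p = 0.430) and 2.15 ± 0.39 with 22 libraries (edgeR adjusted p = 0.000575). The age difference in the Siglec F-low sort was 1.07 ± 0.54 (edgeR adjusted p = 0.663), and 1.08 ± 0.30 with 22 libraries (edgeR adjusted p = 0.0298). Fibroblasts are another source of Timp1 and of Timp3. The summed level of 8 fibroblast markers was 0.191 to 3.79 CPM in young naive, 0.663 to 2.51 in old naive, 0 to 3.54 in young asbestos Siglec F-high, 1.58 to 16.4 in old asbestos Siglec F-high, 3.37 to 13.8 in young Siglec F-low and 7.11 to 14.02 in old Siglec F-low libraries, with Lum at 0 in every library of 5 groups. The part of these markers in the Timp1 differences was not tested.

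Timp2 (ENSMUSG00000017466, chr11:118301069-118355740, minus strand), an inhibitor that also takes part in the activation of MMP2 by MT1-MMP, was the most abundant inhibitor in every group. It measured 77.4, 77.4, 82.4 and 95.1 CPM in young naive and 88.8, 65.0, 80.6 and 87.3 CPM in old naive libraries. Asbestos Siglec F-high libraries gave 121.0, 97.9, 113 and 121.4 CPM at the young and 104, 103, 73.5 and 109 CPM at the old age, where the low value is again replicate 3. Siglec F-low libraries gave 160.3, 185, 168 and 180.2 CPM (young) and 206, 163, 198 and 204 CPM (old), above all Siglec F-high libraries. The sort difference was 0.61 ± 0.13 in young (edgeR adjusted p = 0.00427) and 0.97 ± 0.13 in old lungs (edgeR adjusted p = 5.85e-05). With 22 libraries the Timp2 asbestos differences passed as well, at 0.44 ± 0.11 in young (edgeR adjusted p = 0.0143, against 0.0691 with 24) and 0.39 ± 0.11 in old Siglec F-high macrophages (edgeR adjusted p = 0.0357, against 0.4999 with 24). The young one also passed without young asbestos Siglec F-high replicate 2 (edgeR adjusted p = 0.0395) or old asbestos Siglec F-high replicate 3 (edgeR adjusted p = 0.0300).

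Timp3 (ENSMUSG00000020044, chr10:86300372-86349506, plus strand), an inhibitor that binds to the matrix and also blocks ADAM proteases, was at 0 to 1.64 CPM and passed no test. Its highest values in the asbestos Siglec F-high groups, 1.64 and 1.63 CPM, came from the replicate 3 libraries, the latter from 2 counts. The SE of its log2 fold changes was 0.98 to 1.14 with 24 libraries, so a difference was not detectable at this depth unless it was several fold. Timp3 shares 1733 exon bases with the antisense gene Syn3, which had at most 11 counts in a library.

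**Figure D3:**
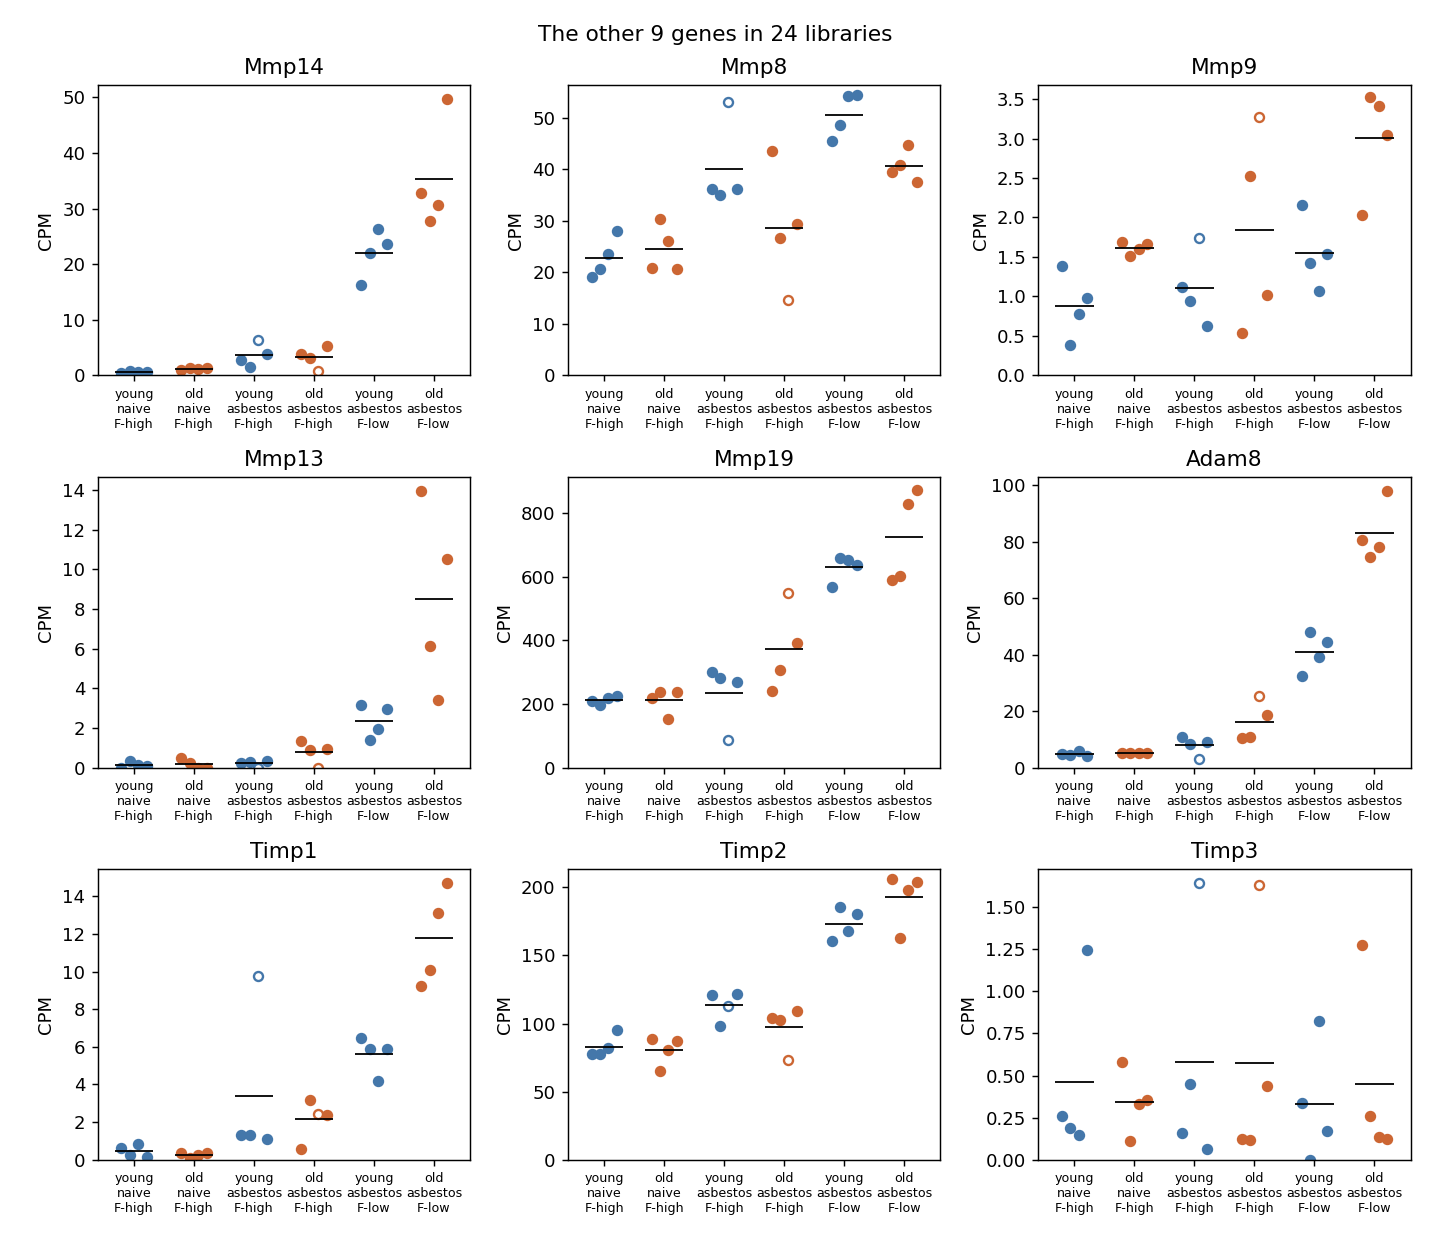
The other 9 members in each of the 24 libraries, in CPM, by group; points are libraries, open points are the 2 libraries that stand apart, and black lines are group means. Mmp14, Mmp13, Mmp19, Adam8 and Timp2 have all Siglec F-low libraries above all Siglec F-high libraries, for Mmp13 leaving aside old asbestos Siglec F-high replicate 3, whose 0 allows up to 2.45 CPM.

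Levels of different members were compared per length, as CPM per kilobase of merged exons. That length was 7237 bases for Mmp12 and 3533 for Mmp19, and their order in the old Siglec F-low sort depends on it. By mean CPM, Mmp12 exceeded Mmp19 there (1308 against 725), but not in the young Siglec F-low sort (587 against 630). In young naive macrophages Mmp19 (60.2 ± 3.26, SD, n = 4), Timp2 (21.3 ± 2.15) and Mmp8 (9.40 ± 1.61) were the highest, and Mmp12 (0.670 ± 0.155) stood in place 5. In young Siglec F-low macrophages Mmp12 (81.1 ± 8.22) stood in place 2 behind Mmp19 (178 ± 11.7) and ahead of Timp2 (44.5 ± 2.93). In the old Siglec F-low sort Mmp12 (181 ± 48.0) and Mmp19 (205 ± 42.2) differed by less than the SD of either, and Timp2 (49.5 ± 5.21), Adam8 (17.9 ± 2.25), Mmp8 (16.8 ± 1.24) and Timp1 (13.3 ± 2.89) followed. Timp3 was last there, at 0.0550 ± 0.0681.

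**Figure D4:**
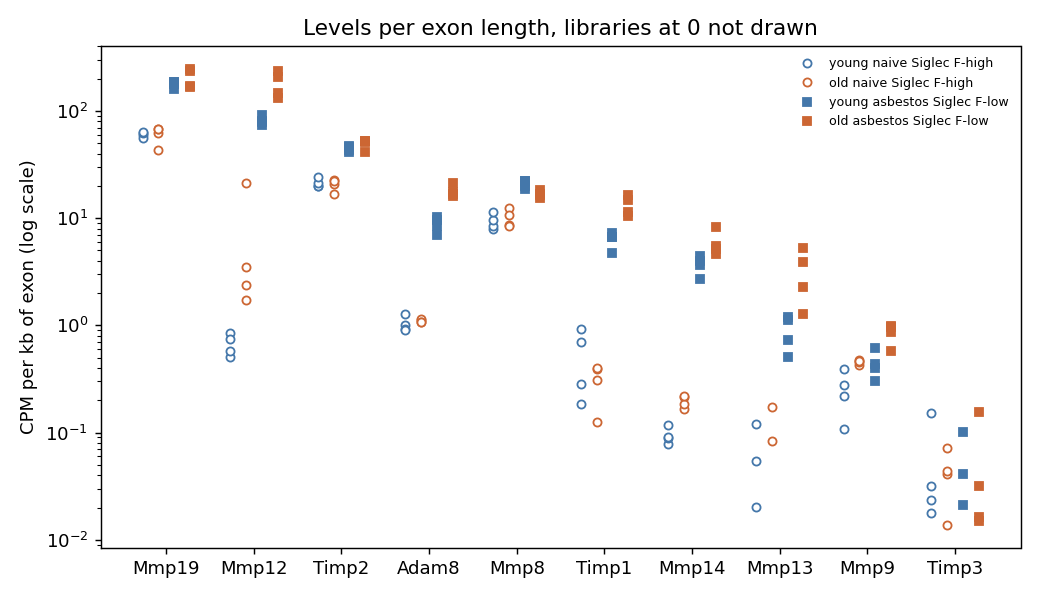
Level of each member per length (CPM per kilobase of exon, log axis) in the libraries of 4 of the groups. Points are libraries, and libraries at 0 are not drawn. Open circles are naive Siglec F-high and filled squares asbestos Siglec F-low macrophages, blue young and orange old. By group mean Mmp19 is highest in every group, and Mmp12 spans from 0.670 in young naive to 181 in old Siglec F-low macrophages.

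Among the genes whose log2 CPM followed Mmp12 most closely over the 24 libraries, by Pearson's coefficient and outside the members, were Slc6a8 (0.97), Rai14 (0.97), Mfge8 (0.96) and Rnase2b (0.95). Slc6a8 encodes the creatine transporter, and Mfge8 a secreted protein that bridges apoptotic cells to phagocytes. Of the members, Mmp14 (0.91), Adam8 (0.88), Mmp13 (0.85) and Timp2 (0.80) were the most like it, and Timp3 (-0.15) the least. With 22 libraries Mmp19 (0.868) and Timp1 (0.834) came before Timp2 (0.826). These coefficients describe libraries that share their groups and are given without a test. Mfge8 rose from a group mean of 11.5 CPM in young naive to 713 CPM in old Siglec F-low libraries.

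The wider protease system was described with 4 further lists. Of 18 other MMP and TIMP genes, 3 passed the filter on low counts (Mmp2, Mmp23 and Mmp25) and none of these was called in any of the 7 comparisons with 24 or 22 libraries. Of 16 other ADAM and ADAMTS proteases 10 were tested, and Adamts2, a procollagen N-proteinase, was higher in the old in each age comparison, by 1.15 ± 0.21 (edgeR adjusted p = 0.00208) in naive, 1.40 ± 0.21 (edgeR adjusted p = 0.000325) in asbestos Siglec F-high and 0.87 ± 0.21 (edgeR adjusted p = 0.0358) in Siglec F-low macrophages. No other of these 10 was called with 24 libraries. Of 17 activators and other inhibitors 11 were tested. Plau, the urokinase that generates plasmin, was higher with age in naive macrophages (1.25 ± 0.30, edgeR adjusted p = 0.0225).

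Of 12 matrix genes that such proteases cut, 11 were tested. Col4a1 and Col4a2, the chains of basement membrane collagen, were both higher in the old in all 3 age comparisons, with log2 fold changes of 6.81 and 6.04 in naive, 4.74 and 5.05 in asbestos Siglec F-high and 3.48 and 3.48 in Siglec F-low macrophages (edgeR adjusted p of at most 0.000410 for Col4a1 and 2.82e-05 for Col4a2). Spp1, which encodes osteopontin, was higher after asbestos in young Siglec F-high macrophages (1.42 ± 0.28, edgeR adjusted p = 0.00822). It was also higher in the Siglec F-low sort, by 1.89 ± 0.29 in young (edgeR adjusted p = 0.000256) and 1.62 ± 0.29 in old lungs (edgeR adjusted p = 0.00121). The median log2 fold change of the 11 matrix genes was 1.65 in the young and 0.31 in the old sort comparison.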

How the data were processed

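The authors deposited 1 table of raw counts per Ensembl mouse gene for 24 poly(A)-selected RNA-seq libraries. The submitters' processing notes name bcl2fastq 2.19.1, FastQC, Trimmomatic 0.36, STAR 2.6.0, HTSeq 0.11.2 and mm10; the annotation and the use of strand are not given in the sources used here. Symbols and positions came from GENCODE M21 on GRCm38 (42462 of 43430 IDs). Reads shared by overlapping or similar genes cannot be followed in such a table.

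Genes were filtered with filterByExpr (minimum count 10, minimum total 15), normalised by TMM and modelled in edgeR 4.0.16 (R 4.3.3; glmQLFit and glmQLFTest) with a mean for each group over all 24 libraries. Adjustment was by Benjamini-Hochberg over the 13467 genes within each of 7 contrasts of 2 groups and 2 interactions, and "called" means an adjusted p below 0.05. CPM values are scaled with the TMM factors. The SE of a log2 fold change is its size divided by the square root of F. A second fit left out the 2 libraries that stand apart (22 libraries, 13629 genes). The code was tested on simulated data. The alternatives were DESeq2 1.42.0, limma 3.58.1 voom with sample weights, DESeq2 size factors, no filter, only the groups compared, a replicate block and leaving out each library.

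Likeness was the Pearson coefficient of log2 CPM with a prior count of 2. All members are named. Genes of the other lists are named if called in 3 or more comparisons or if called with the largest change of their list in a comparison, except a few that are not reported here. The members, lists and libraries left out were chosen with earlier results of these data known. Replicate numbers were not said to pair libraries.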

Additional observations from a re-analysis of the deposited data

Results flagged for a closer look

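In 60 groups of 4 libraries (10 members in 6 groups), 7 had 1 library set apart from the other 3 by more than Dixon's 95% limit for 4 values. Chance gives about 1 in 20 such groups.

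For Mmp12, old naive replicate 2 was at 155 CPM (others 12.6 to 25.5), and young asbestos Siglec F-high replicate 1 at 87.3 CPM (others 39.8 to 42.6). Of genes most like Mmp12, Mfge8 (38.2 CPM; others 36.1 to 53.2) and Slc6a8 (10.6; others 3.32 to 13.1) lay inside the range of the other 3 libraries in old naive replicate 2. Rai14 (1.01; others 0.355 to 0.939) and Rnase2b (2.92; others 2.04 to 2.55) were highest there. The summed monocyte-derived macrophage markers were at 3335 CPM there (others 3087 to 3662).

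Young asbestos Siglec F-high replicate 3, one of the 2 libraries that stand apart, was high for Mmp8 (53.0 CPM; others 35.0 to 36.2) and Timp1 (9.77; others 1.12 to 1.34) and low for Mmp19 (87.2; others 269 to 300.1). For Timp3, young naive replicate 4 was at 1.25 CPM (others 0.146 to 0.257) and old asbestos Siglec F-low replicate 1 at 1.27 (others 0.122 to 0.261).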

How the results depend on the processing

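No member named as called with 24 or 22 libraries changed direction under any alternative run. The number of members called was 1, 1 and 1 in the age comparisons (naive, asbestos Siglec F-high, Siglec F-low), 4 and 2 after asbestos (young, old), 6 and 7 between sorts and 0 in both interactions. Leaving out 1 library at a time gave 1 to 1, 0 to 2 and 0 to 3, then 2 to 5 and 1 to 5, then 6 to 7 and 5 to 7, and 0 to 0 in both interactions. Without both libraries that stand apart it was 4 in the age comparison of Siglec F-low and 7 after asbestos in old lungs. DESeq2 gave 3 and 2 in the age comparisons of asbestos Siglec F-high and Siglec F-low, and 5 after asbestos in old lungs. Limma voom gave 6 in the age comparison of Siglec F-low and 5 after asbestos in old lungs. Fits of only the groups compared gave 0 and 6 in the age comparisons of asbestos Siglec F-high and Siglec F-low, and 1 and 1 after asbestos (young, old). DESeq2 size factors and no filter left every count within 1.5 times. For the comparisons of 2 groups, shares of all genes called are given above for the edgeR fits over 24 and 22 libraries alone.

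The replicate block gave 0 and 0 in the age comparisons of asbestos Siglec F-high and Siglec F-low and 2 after asbestos in young lungs. The block without both libraries gave 2, 4 and 7 in naive age, Siglec F-low age and old asbestos. Same-numbered libraries of 2 groups all correlated above 0.1 in no pair of groups with 24 libraries, and with 22 only between the old asbestos sorts (0.150 to 0.205), where the block left 7 calls. The causes of these moves were not tested. Depth limits Mmp13, Timp1, Timp3, Mmp14 and Mmp9 in old asbestos Siglec F-high replicate 3, where 3 counts are 2.45 CPM.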

Other observations

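Mmp12, Mmp13 and Mmp8 lie in a run of 10 Mmp genes over 427 kb of chromosome 9 (GRCm38), and they were the 3 of the 10 that passed the filter on low counts. The other Mmp genes of this run were nearly silent, and genes of other families in the region were not examined. Mmp1b, which overlaps Mmp12 on the other strand with 157 shared exon bases, had at most 8 counts in a library, while Mmp12 had 65 to 29210. Mmp3 and Mmp10 had at most 4 counts, Mmp27 at most 5, and Mmp1a, Mmp7 and Mmp20 had 0 in all 24 libraries. Mmp13 stood at 0 to 241 counts and Mmp8 at 18 to 953.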
